A study of Mus musculus with 8 samples.

Results

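Il17f and Il24 encode secreted cytokines that belong to neighbouring arms of skin inflammation, and they were examined in the ear skin of mice whose epidermis had lost corneodesmosin (gene Cdsn), a glycoprotein of the junctions that hold the outermost skin cells together. The pair was taken as the probe sets that the authors' deposited table of differences names Il17f or Il24. This gave 1 probe set for each gene, 2 of the 33793 probe sets on the array. That table holds only the 3411 probe sets that passed the authors' limits on the comparison of KO with WT, so membership itself came from that contrast. The differences between genotypes for Il17f and Il24 are therefore given as a description, without a test.

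The 8 arrays hold ear skin of 4 KO and 4 WT mice, each of a different mouse per the labels. KO mice were KRT14-CreERT2(tg/0)/Cdsnfl/fl and WT mice KRT14-CreERT2(tg/0)/Cdsnwt/wt, on a background labelled C57B/6J. Every mouse thus carried the tamoxifen-inducible recombinase under the keratin 14 promoter, a promoter of basal keratinocytes, and was aged 7 to 12 weeks at treatment. All ears received 100 µg of 4-hydroxytamoxifen a day for up to 15 days, so drug and recombinase do not separate the groups. Ear skin also contains cells in which this promoter is silent, and the RNA was that of whole skin. In such bulk samples, more cells that express a cytokine and more transcript per cell cannot be told apart.

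IL-17F is a cytokine of type 17 lymphocytes, close kin of IL-17A, with which it can pair. It binds a receptor made of IL-17RA and IL-17RC, which keratinocytes carry, and calls on the adaptor Act1 and TRAF6 to raise antimicrobial proteins, neutrophil-attracting chemokines and IL-36 cytokines. IL-24 belongs to the IL-20 subfamily of the IL-10 family. It is made by keratinocytes as well as by immune cells, binds receptors built from IL-20RA, IL-20RB and IL-22RA1, and signals through STAT3. Both are known from psoriasis-like inflammation and from the response of skin to injury.

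The sequence just upstream of the start of Il17f is shown because it is the regulatory DNA next to one of the genes described. It is 250 bases long, runs 5′ to 3′ towards the gene, and is that of RefSeq for GRCm38.p6 at chr1:20784271-20784520, minus strand. RefSeq promoter entries matched 1 of the 2 genes, Il17f; the other is Il24. Capitals mark the match to the RUNX motif TGTGGT, read on the opposite strand as ACCACA.
Il17f: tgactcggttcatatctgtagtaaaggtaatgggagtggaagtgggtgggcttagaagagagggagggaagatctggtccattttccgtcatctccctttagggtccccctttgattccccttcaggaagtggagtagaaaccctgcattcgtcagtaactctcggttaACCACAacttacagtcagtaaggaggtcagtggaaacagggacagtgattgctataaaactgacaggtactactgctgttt
The motifs searched were those of RUNX, STAT and AP-1 factors, which type 17 lymphocytes are known to use, on both strands of the 250 bases. Motifs of other factors of these cells were not searched. TGTGGT, a RUNX core site, occurred 1 time, with its first base 81 bases upstream of the start. Among 32851 upstream windows of the same length in the table, 14.0% held TGTGGT, so such a match is not rare. The STAT motif TTCNNNGAA, held by 7.02% of windows, and the AP-1 motif TGANTCA, held by 6.75%, had 0 matches in these bases.

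As a check of the labels, Cdsn itself read 8.89 to 10.31 in KO and 11.76 to 12.13 in WT, without overlap (RMA log2 values, as for all levels here). The median of each KO array, 5.52 to 5.59, exceeded that of each WT array, 5.43 to 5.49, and the median difference over all probe sets was 0.094 log2 units. Limma called 4428 probe sets at adjusted p under 0.05, which is 13.1% of those tested; with the table's further limit of 0.5 log2 units either way, 10.1% were called, 7.63% higher and 2.47% lower in KO. All 3411 probe sets so called are the table's entries.

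Il17f was higher in KO ear skin on every array, by a modest amount and from a low level. It read 6.15, 5.39, 6.28 and 5.94 in KO replicates 1 to 4. In WT replicates 1 to 4 it read 4.84, 4.65, 4.82 and 4.79. The WT arrays thus lay close together, and the lowest KO array, replicate 2, stood 0.56 log2 units above the highest WT array. The KO mean was 5.94 ± 0.39 and the WT mean 4.77 ± 0.09 (SD, n = 4 each), so the means differed by 1.17 log2 units (SE 0.18), or 2.24-fold. The SD in WT was smaller than that of most probe sets, at percentile 10.8, whereas the SD in KO was at percentile 85.1. Its mean level over the 8 arrays was at percentile 47.8 of all probe sets, just below the middle. The probe set has 17 probes on chromosome 1 and is of cross-hybridisation class 1, not of class 3, the class of the table for probes that also match other transcripts. A difference at least as high was found for 491 probe sets, 1.45% of all.

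Il24 showed the higher difference of the pair and also far more scatter, and its groups overlapped. It read 9.13, 9.37, 6.53 and 8.15 in KO replicates 1 to 4. In WT replicates 1 to 4 it read 7.29, 4.96, 5.07 and 5.41. WT replicate 1 was the exception in its group and lay above KO replicate 3, the lowest KO array. The other WT arrays, at most 5.41, were all below the lowest KO array. The KO mean was 8.30 ± 1.29 and the WT mean 5.68 ± 1.09 (SD, n = 4 each), so the means differed by 2.62 log2 units (SE 0.68), or 6.13-fold. Without WT replicate 1 the difference was 3.15 (SE 0.60), with the groups 1.12 log2 units apart, and without KO replicate 3 it was 3.20 (SE 0.56), with the groups 0.87 apart. Leaving out any other array gave 2.26 to 2.66. Both SDs were among the highest on the array, at percentiles 99.5 in KO and 99.6 in WT. The 23 probes, of class 1, also lie on chromosome 1, and the mean level was at percentile 68.3. A difference at least as high was found for 48 probe sets, 0.142% of all.

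In the authors' deposited table the log2 fold changes were 1.17 for Il17f and 2.62 for Il24, the same values. The adjusted p there was 0.00634 for Il17f and 0.0371 for Il24, so that Il24 entered closer to the limit of 0.05, with the larger difference. Of the limma refits that left out 1 array, Il24 missed that limit in 6 (adjusted p 0.0645 to 0.0953). Il24 met it without WT replicate 1 and without KO replicate 3. Il24 also missed it without moderation (0.107) and without dim probe sets (0.0698). Il17f met it with each array left out (limma adjusted p at most 0.0218). Both genes were taken from this contrast, so the refits describe dependence on single arrays and settings and are no test. By p-value Il17f and Il24 stood at places 555 and 2925 of the 3411 entries.

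**Figure D1:**
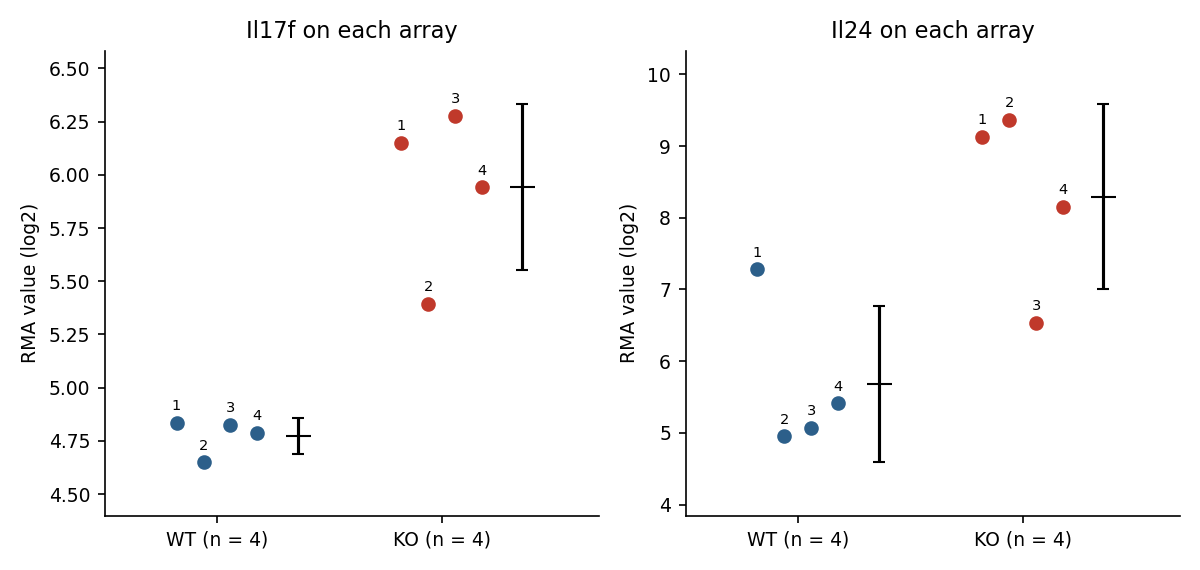
RMA log2 values of Il17f (left) and Il24 (right) on each array, WT in blue and KO in red, each point labelled with its replicate number; black bars show the mean and SD of 4 arrays, and the vertical axes differ and do not start at 0. All KO points lie above all WT points for Il17f, whereas for Il24 WT replicate 1, at 7.29, lies above KO replicate 3, at 6.53.

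The arrays were not ordered alike by the pair. Relative to the WT mean, Il24 was highest in KO replicates 2 and 1, at 3.69 and 3.45 log2 units, and lowest of the KO arrays in replicate 3, at 0.85. Il17f ran the other way at the extremes: replicate 3 was its highest KO array, at 1.50, and replicate 2 its lowest, at 0.62. KO replicate 1 was high for both, at 1.38 for Il17f, and replicate 4 was intermediate for both, at 2.47 for Il24 and 1.17 for Il17f. Among WT arrays, replicate 1 stood 1.60 above its group's mean for Il24 and 0.06 above it for Il17f. With 4 arrays a group no test of this difference in order was made.

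**Figure D2:**
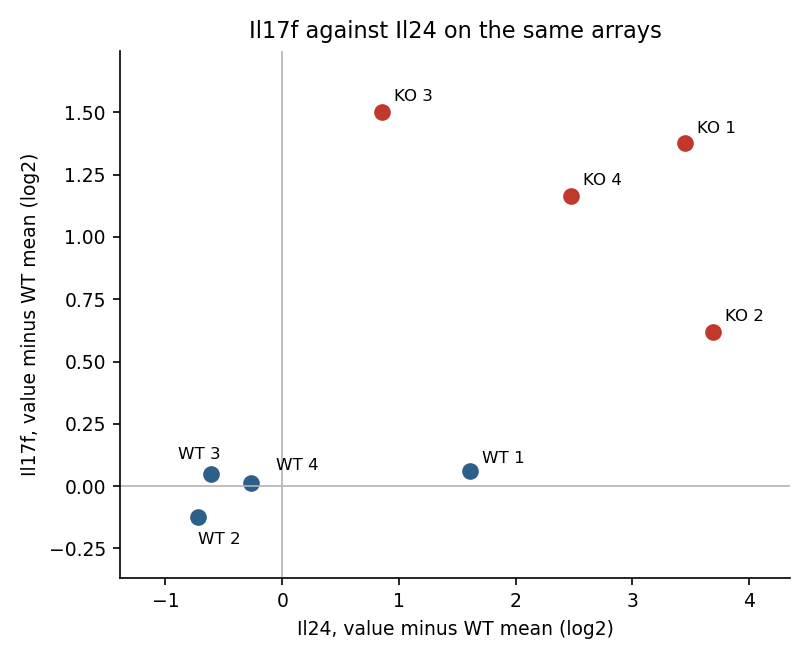
Each of the 8 arrays placed by its Il24 value (horizontal) and its Il17f value (vertical), both as log2 units above the WT mean of the gene; WT arrays are blue and KO arrays red. WT replicate 1 lies at 1.60 for Il24 but at 0.06 for Il17f, and KO replicates 2 and 3 change places between the axes.

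The ligands next to the pair in family and in position were seldom in the table, which holds 10.1% of all probe sets. Of the 5 other IL-17 family ligands, Il17a, Il17b, Il17c, Il17d and Il25, 0 had an entry, and of the 6 other IL-10 family ligands only Il10 had one, while Il19, Il20, Il22, Ifnl2 and Ifnl3 had none. A gene without an entry either missed the limits or had no probe set that could be named here, so its level is not given. Il17a is the nearest protein-coding neighbour of Il17f, and of the 6 nearest, 3 on each side, 0 had an entry. Il24 lies in the cluster that also holds Il20, Il19 and Il10, and of its 6 nearest protein-coding neighbours Il10 alone had one. Il10, which encodes an anti-inflammatory cytokine, read 5.25, 4.70, 4.13 and 4.51 in KO replicates 1 to 4. In WT replicates 1 to 4 it read 4.09, 3.81, 3.53 and 3.68, so the groups did not overlap, but by a margin of only 0.04 log2 units. Its difference was 0.87 (SE 0.23, limma adjusted p = 0.0372), at a level at percentile 27.9 of all probe sets; the call was lost in 6 of the 8 fits that leave out 1 array, after quantile normalization and after median centring. As with Il24, KO replicate 3 was its lowest KO array and WT replicate 1 its highest WT array. Il21, a cytokine of T helper cells that promotes type 17 differentiation, was the only pathway gene in the table that fell. It fell by 0.93 on the log2 scale (SE 0.10, limma adjusted p = 0.00191); the WT mean was 4.39 ± 0.12 and the KO mean 3.46 ± 0.08 (SD, n = 4 each), at a level at percentile 23.5.

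Over the 9 pathway lists, 105 genes beside the pair were looked for and 18 had an entry, 17 higher and 1 lower in KO; among all probe sets the same limits were met by 7.63% higher and 2.47% lower. The remaining 87 genes had none. The KO and WT arrays did not overlap for 14 of the 17 higher genes, which were selected as called. Of all 2577 probe sets of the table higher in KO, likewise selected as called, 94.1% had every KO array above every WT array. Over all probe sets, called or not, the share was 15.9%. The 3 of the 17 genes that overlapped were S100a8, Defb4 and Il36a, each with WT replicate 1 inside the KO range.

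Of the 5 IL-17 receptor genes, Il17ra rose and the other 4 had no entry, among them Il17rc, which encodes the partner chain for IL-17F. Il17ra, the shared receptor chain, read 9.06, 8.64, 8.36 and 8.52 in KO replicates 1 to 4 and 8.04, 7.69, 8.11 and 8.16 in WT, a difference of 0.65 (SE 0.17, limma adjusted p = 0.0373). The lowest KO array lay 0.21 above the highest WT array, and 7 of the 8 fits that leave out 1 array no longer called it. It was also lost after quantile normalization and after median centring. Of the 7 IL-10 family receptor genes, which include the IL-24 receptor chains Il20ra, Il20rb and Il22ra1, 0 had an entry. Among all probe sets 10.1% had one.

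Below the receptor, 5 of 20 IL-17 signalling genes had an entry, all higher in KO, where 7.63% of all probe sets were called higher. The other 15 had none, so their direction is not known here. Traf6, the ubiquitin ligase that carries the signal on from Act1, rose by 0.75 (SE 0.10, limma adjusted p = 0.00391), and its KO arrays, 8.99 to 9.28, were well apart from its WT arrays, 8.29 to 8.47. Nfkbiz, which encodes the atypical inhibitor IkB zeta, a coactivator at IL-17 target genes, rose by 1.46 (SE 0.23). Its KO arrays read 8.46 to 9.06 and its WT arrays 6.74 to 7.84. The brakes on the same pathway were higher too: Zc3h12a, which encodes an RNase that degrades cytokine transcripts, rose by 0.94 (SE 0.18), and Tnfaip3, which encodes the deubiquitinating enzyme A20, rose by 1.06 (SE 0.23). Cebpb, a transcription factor at IL-17 target genes, rose by 0.71 (SE 0.19). Adjusted p for these last 4 genes ran from 0.00679 to 0.0429 in limma. The calls of Traf6, Nfkbiz and Zc3h12a held with each of the 8 arrays left out, that of Tnfaip3 was lost only without KO replicate 2, and that of Cebpb in 7 of the 8.

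The STAT factors rose less. Stat3, the factor downstream of the IL-24 receptors, rose by 0.57 (SE 0.11, limma adjusted p = 0.0135), with KO arrays at 11.38 to 11.56 and WT arrays at 10.64 to 10.99. It was the only one of the 11 JAK-STAT genes with an entry. Of 14 type 2 genes, Stat6, the factor downstream of IL-4 and IL-13, rose by 0.56 (SE 0.10, limma adjusted p = 0.0112), and Il1rl1, which encodes the IL-33 receptor, rose by 1.67 (SE 0.41, limma adjusted p = 0.0309), a call lost in 5 of the 8 fits that leave out 1 array. The Stat3 call was lost without WT replicate 2, and both STAT calls were lost after quantile normalization and after median centring. Il4, Il5 and Il13 had no entry. Of 20 type 17 inducers and transcription factors, only Stat3 and Il21 had one, whereas Il23a, Il1b and Il6, among others, did not. Over all probe sets the share with an entry was 10.1%, so the counts for JAK-STAT and type 17 genes lay near that share.

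Of 21 genes known to respond to IL-17 in epithelium, 9 had an entry, all higher in KO, among them Nfkbiz and Zc3h12a above. The other 12 had none, so their direction is not known here. Among all probe sets, 7.63% were called higher and 2.47% lower. S100a9 and S100a8, the calprotectin chains, rose by 5.22 (SE 1.04) and 4.02 (SE 1.10). Defb4, a beta-defensin, rose by 3.57 (SE 0.98), Il36a, an IL-1 family cytokine that the table names Il1f6, by 2.65 (SE 0.57), and the iron-sequestering lipocalin Lcn2 by 2.33 (SE 0.44). Camp, which encodes cathelicidin, rose by 0.85 (SE 0.17), and Csf2, which encodes the growth factor GM-CSF, by 0.74 (SE 0.18), the latter at percentile 17.4 of level. Limma adjusted p for these 7 genes ran from 0.0125 to 0.0437. The neutrophil chemokine genes Cxcl1, Cxcl2, Cxcl3 and Cxcl5 and the chemokine gene Ccl20 had no entry. S100a8, S100a9 and Camp are transcripts of neutrophils as well as of epithelium. With each of the 8 arrays left out in turn, S100a9, Lcn2 and Camp kept their calls, whereas 7 of the fits no longer called S100a8, 5 no longer called Defb4, 5 no longer called Csf2 and 4 no longer called Il36a.

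**Figure D3:**
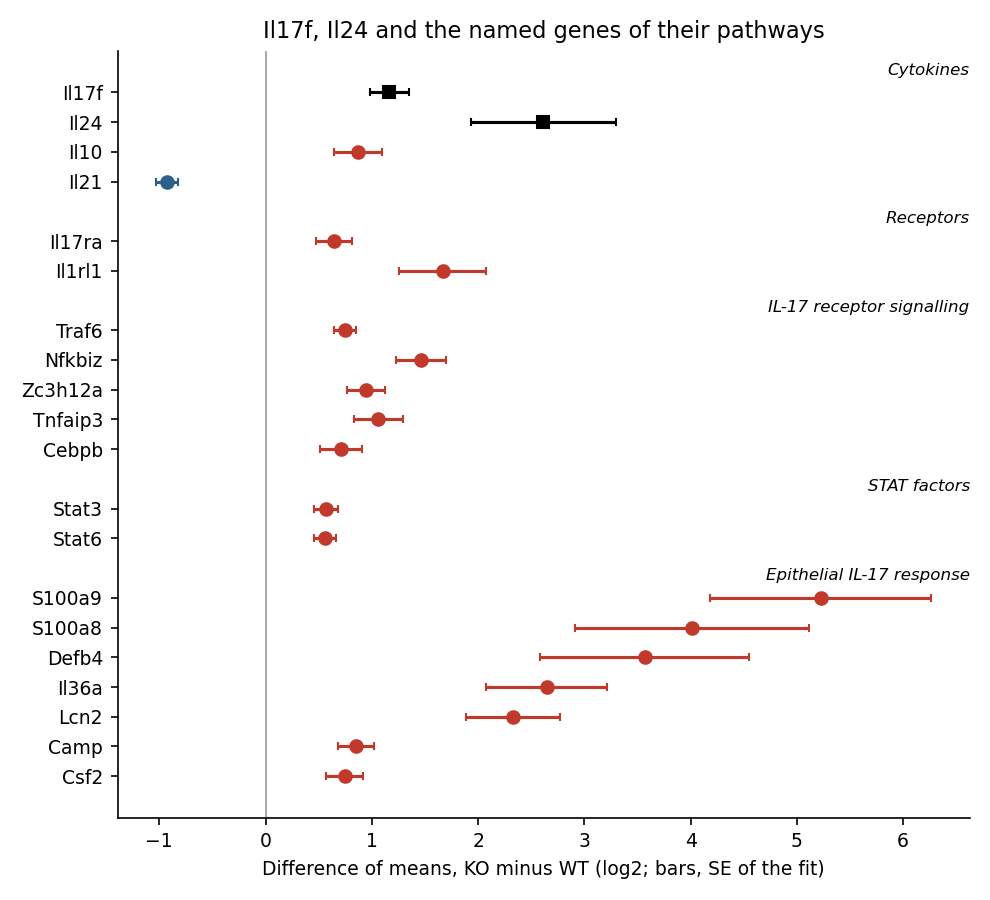
Difference of the group means, KO minus WT, on the log2 scale for Il17f and Il24 (black squares) and the 18 pathway genes with an entry in the table (circles, red where higher and blue where lower in KO), grouped by role; bars are the SE of the fit on 8 arrays. Only Il21 lies below 0, and the widest bars are those of S100a8, S100a9 and Defb4. Genes without an entry are not drawn.

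The KO arrays of these 17 higher genes split as those of Il24 did, though not in the same full order: the highest was replicate 1 for 10 genes, replicate 2 for 6 and replicate 4 for 1, where for Il24 it was replicate 2. KO replicates 1 and 2 both lay above replicates 3 and 4 for Il24 and for 16 of the 17 genes, Zc3h12a being the exception; among all 2577 probe sets of the table that were higher in KO the share was 36.9%. KO replicate 2, the lowest KO array for Il17f, was the lowest for 1 of the 17, again Zc3h12a, and for 15.8% of the 2577. WT replicate 1 was the highest WT array for both members of the pair, for 8 of the 17 genes and for 36.8% of the 2577 probe sets. Genes share the arrays, so these counts are a description of 8 mice.

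Markers of the cells that could carry these transcripts moved across the same arrays. Beside the counts below, 7.63% of all probe sets were called higher and 2.47% lower. Of 14 T cell markers, Icos and Foxp3 had an entry and both rose, with a summed level on the linear scale of 118 to 301 in KO and 65.2 to 116 in WT. Their highest WT array was replicate 1 and their lowest KO array replicate 3, as for Il24. Icos did not overlap between groups, whereas Foxp3 did, with KO replicate 3 at 5.72 and WT replicate 1 at 5.79. Of 9 markers of type 17 lymphocytes, Il23r, Ccr6 and Il17a among them, 0 had an entry. Of 7 neutrophil markers, 5 had one and rose. Their summed level was 4138 to 12406 in KO and 164 to 3932 in WT, with WT replicate 1 the highest WT array. This sum leans on S100a8 and S100a9, also transcripts of epithelium, which read 11.57 and 9.00 in WT replicate 1. Cxcr2 read 8.47 there, and the neutrophil surface gene Ly6g 4.12. Ly6g read 7.91 and 7.93 in KO replicates 1 and 2 but 4.72 and 4.62 in replicates 3 and 4. Of 7 mast cell markers, 3 had an entry and rose, with sums of 755 to 2331 in KO and 229 to 411 in WT. Among them Tpsb2 overlapped between groups, whereas Tph1 and Tpsab1 did not. Tpsab1 read 8.56 to 10.05 in KO and 4.91 to 5.17 in WT. Tpsab1 and Tpsb2 lie on chromosome 17, as Cdsn does, and whether this position bears on their values was not tested. Of 6 suprabasal keratinocyte markers, Krt1 and Ivl had an entry and rose, with sums of 7195 to 13599 in KO and 1843 to 6890 in WT. Of 4 endothelial markers, Cdh5 had one and rose (703 to 1060 in KO and 480 to 652 in WT). Limma adjusted p was close to the limit of 0.05 for the markers S100a8 (0.0429), Foxp3 (0.0432), Ly6g (0.0473) and Cdh5 (0.0486). The lists for basal keratinocytes, macrophages, Langerhans and dendritic cells, and fibroblasts had 0 entries. No named marker was at 0. The part of these cells in the values of Il17f and Il24 was not tested.

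Likeness of pattern was measured over the 8 arrays, as the root mean square difference between the values of a gene and those of Il17f or Il24 after each was set to its own WT mean. Among the 3022 other named genes of the table, Il24 was most like Nppb, which encodes a natriuretic peptide, at 0.42 log2 units. Areg, which encodes the epidermal growth factor receptor ligand amphiregulin, followed at 0.49, the predicted gene Gm5414 at 0.53, the retinol dehydrogenase gene Dhrs9 at 0.55 and the neutrophil chemokine receptor gene Cxcr2 at 0.56. Nppb read 8.53, 9.23, 6.78 and 8.74 in KO replicates 1 to 4. In WT replicates 1 to 4 it read 7.16, 4.51, 4.67 and 5.01. Like Il24, it overlapped through WT replicate 1 and KO replicate 3 alone. All 5 had WT replicate 1 as their highest WT array, and their differences ran from 2.23 to 2.98 log2 units.

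The genes most like Il17f were of another kind. They were the pseudogene Mageb16-ps1 at 0.16 log2 units, the predicted genes Gm10617 at 0.16, Gm20262 at 0.16, Gm25201 at 0.19 and Gm23270 at 0.19. All 5 lay below Il17f in level, at percentiles 15.4 to 39.6, and Gm10617, Gm20262 and Gm23270 were of cross-hybridisation class 3. All 5 had KO replicate 2 as their lowest KO array, as Il17f did. Gm10617 read 5.26, 5.01, 5.37 and 5.33 in KO replicates 1 to 4 and 4.18, 3.90, 4.00 and 4.03 in WT. The differences of the 5 ran from 1.06 to 1.34 log2 units. No gene was among the 5 most like both members of the pair.

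**Figure D4:**
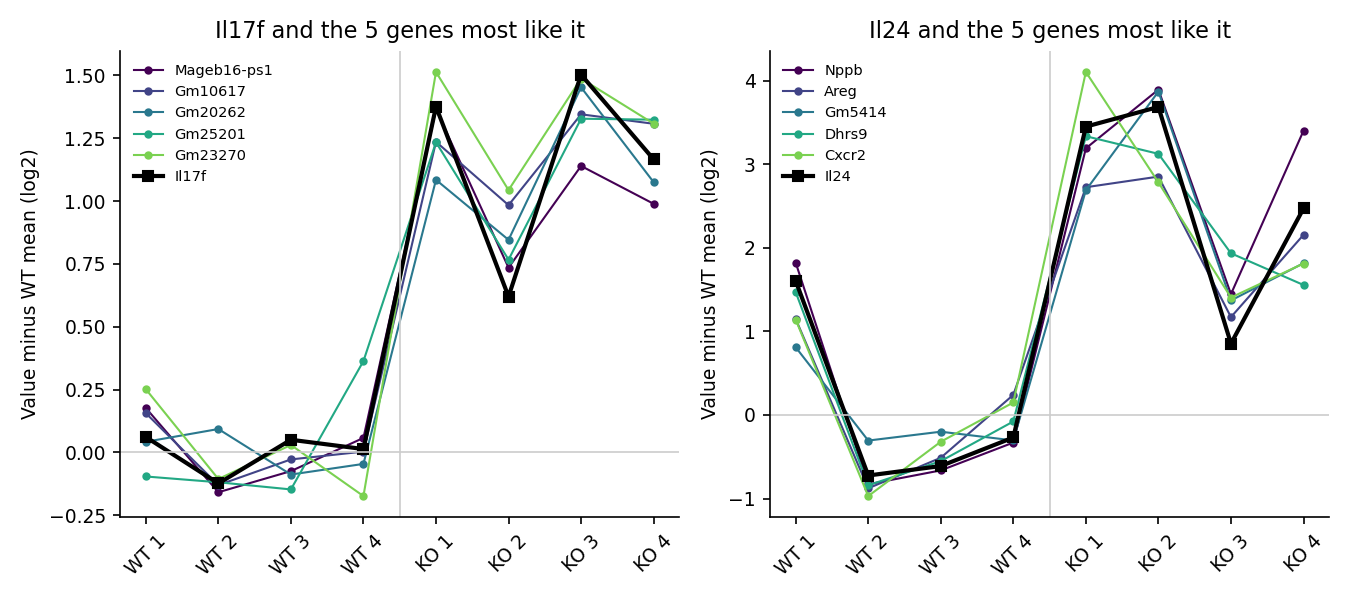
Values of Il17f (left, black squares) and Il24 (right, black squares) with the 5 named genes most like each (coloured circles), as log2 units above the WT mean of each gene, on the 8 arrays; lines join the values of one gene and stand for no order of mice, and the vertical axes differ. The genes with Il24 share its height in WT replicate 1, and all but Dhrs9, lowest in KO replicate 4, share its low value in KO replicate 3; those with Il17f share its low value in KO replicate 2.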

How the data were processed

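RNA of whole ear skin was hybridised to Affymetrix Gene Mouse 2.0 ST arrays, per the file headers. The authors deposited log2 values; RMA was the tool, per the submitters' processing notes, and its version, its options and the genome build are not given in the sources used here. Such processing corrects background, scales arrays to one another and sums up the probes of a probe set. Their deposited table gives group means on the log2 scale, a fold ratio, p-values and adjusted p-values, with gene symbols; all other probe sets are unnamed here. No column lacked a sample (0 left out). A few items are not reported here.

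Values were used as deposited. Limma 3.58.1 in R 4.3.3 was fitted to all 33793 probe sets, KO minus WT, two-sided, with Benjamini-Hochberg adjustment; its log2 differences are those of the table. The script was tested on simulated data. The number of arrays limits the precision. Percentiles rank means or SDs over all probe sets. For genes with more than 1 probe set, that of highest mean was taken.

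The pair, the 9 pathway lists and the 10 marker lists were chosen with earlier results of these data known. Named genes are the pair, Cdsn, list members with an entry, the 3 nearest protein-coding genes on each side (RefSeq, GRCm38.p6), and the 5 genes most like each. The main fit did not pair mice by replicate number, since the labels give no pairing. Deviations from group means correlated at 0.55, -0.06, 0.28 and 0.30 for numbers 1 to 4. The alternatives were other scalings, a filter on dim probe sets, a replicate block, other variance priors, and leaving out each array. Python 3.11.15, numpy 2.4.6, pandas 2.3.3 and matplotlib 3.10.9 were used.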

Additional observations from a re-analysis of the deposited data

Results flagged for a closer look

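Neither Il17f nor Il24 had an array that stood apart from its group by Dixon's criterion (the gap to the nearest array as a share of the group's range). Of 126 groups of 4 arrays examined over the named genes, 7 had such an array, and chance flags about 1 in 20. Stat3 read 10.64 in WT replicate 2, below the other WT arrays. Gm25201, among the genes most like Il17f, read 5.08 in KO replicate 2, below its group, and 4.67 in WT replicate 4, above its group. Gm5414, among the genes most like Il24, read 4.77 in WT replicate 1, above its group. Of the cytokine genes below, Lif read 6.12 in WT replicate 1, above its group, Ifne 3.43 in WT replicate 2, below it, and Il3 3.93 in KO replicate 1, above it.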

How the results depend on the processing

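The differences kept their direction and moved by less than 1 SD between replicates under every alternative that could be computed: 1.07 to 1.17 log2 units for Il17f and 2.50 to 2.62 for Il24 under the scalings and models, and 1.05 to 1.35 and 2.26 to 3.20 with single arrays left out. Il17f was not in the fit without dim probe sets. Of the genes most like them, 4 of 5 for Il17f and 5 of 5 for Il24 were the same after quantile normalization. The count of pathway genes called higher, 17, could only fall, since names exist for called probe sets alone. It was 10 after quantile normalization and 10 after median centring, which both lost Il17ra, Cebpb, Stat3, S100a8, Defb4, Il10 and Stat6; 6 without moderation; 9 without dim probe sets; and 8 to 15 with single arrays left out. The count called lower was 1, and 0 without dim probe sets, where Il21 was not tested. In all, 8 of the 18 calls held with each array left out, and 7 of these also after both scalings: Traf6, Nfkbiz, Zc3h12a, Il21, S100a9, Lcn2 and Camp. Calls over all 33793 probe sets were 4428, and 718 of the 16897 tested without dim probe sets. With an array left out they were 2161 to 3504 of 33793. The lowest of these were without KO replicate 2 (2161), WT replicate 2 (2281), WT replicate 3 (2335), KO replicate 1 (2751) and WT replicate 4 (2883). The counts of pathway genes called higher were then 8, 8, 9, 10 and 10. Higher calls made up 75.7% of all calls in the deposited values, 49.1% with quantile normalization and 53.2% with median centring, as the median difference went from 0.094 to -0.021 and -0.005. With the replicate block 5150 probe sets and 17 pathway genes higher were called, and the SE was 0.14 for Il17f and 0.45 for Il24. KO replicates 1, 3 and 4 correlated best with the WT array of the same number, and KO replicate 2 with WT replicate 1. Whether the numbers stand for a pairing or a shared batch was not tested. Causes of the changes in calls between settings were not tested.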

Other observations

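Of the named genes of the table, 30 carry its annotation for cytokine activity, a set chosen after the values were seen that includes some pathway genes. Of these, 23 were higher and 7 lower in KO, with the pair among the higher. The table as a whole was split in much the same way, with 2577 of its 3411 entries higher and 834 lower. The groups did not overlap for 25 of the 30. All 30 were selected as called on this contrast, so the share of 21.5% over all probe sets is not a like measure. Of the 2577 entries higher in KO, 94.1% had every KO array above every WT array. Several of the 30 cytokine genes were of low level, 15 of them lying below the middle of all probe sets.

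Ifng, which encodes interferon gamma, was higher by 1.37 log2 units (SE 0.13, limma adjusted p = 0.00122) at percentile 30.4 of level. It read 5.05, 4.91, 5.32 and 4.93 in KO replicates 1 to 4 and 3.79, 3.60, 3.84 and 3.50 in WT, so that, as for Il17f, KO replicate 3 was the highest and KO replicate 2 the lowest. Il1a was higher by 1.92 (SE 0.44), and it overlapped between groups, as Il24 did: WT replicate 1 read 8.06 and KO replicate 4 read 8.01. The interleukin gene Il3, the interferon gene Ifne and the leukaemia inhibitory factor gene Lif were higher by 0.61, 0.86 and 0.51. The T cell and natural killer cell chemokine gene Xcl1 differed by -1.30 log2 units (SE 0.33, adjusted p = 0.0335 in limma), and the tumour necrosis factor family gene Cd70, on chromosome 17 as Cdsn is, had a difference of -0.96 (SE 0.12).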
